A study of Mus musculus with 16 samples.

Results

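The genes described here are 10 markers of disease-associated microglia whose products handle lipid, are secreted, or sit in the cell membrane: Apoe, Lpl, Fabp5, Ch25h, Spp1, Igf1, Lgals3, Gpnmb, Cd9 and Cd52. They were chosen by symbol, and each symbol matched 1 of the 49671 gene rows of the deposited count table. Hippocampal RNA of female mice aged 8 months was sequenced in bulk, in 16 libraries, 4 from each of 4 genotypes. PS19_p16KO mice carry the PS19 transgene and a p16 knockout, PS19 mice carry the transgene with p16 intact, p16KO mice carry the knockout alone, and WT mice carry neither. PS19 is a transgene for mutant human tau driven by the mouse prion protein promoter and is used as a model of tauopathy. The labels do not say whether the p16 knockout also removes the other product of Cdkn2a, nor that the 4 samples of a group are separate animals, and the spread behind each p-value may thus be technical.

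Disease-associated microglia are a state of the resident brain macrophages seen near amyloid deposits, tau pathology and dying neurons. Genes of the resting, or homeostatic, state are lowered in it, and genes of lipid uptake, lysosomes and secretion are raised, in part through the lipid receptor Trem2. Apoe is the main apolipoprotein of the brain and is made by astrocytes as well as by microglia. Lpl releases fatty acids from lipoproteins, Fabp5 carries fatty acids inside the cell, and Ch25h makes the oxysterol 25-hydroxycholesterol.

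Gene counts per library lay between 18485552 and 22311322. Cdkn2a, which encodes p16, summed to 2 counts in PS19_p16KO and 18 in PS19, and to 3 counts in p16KO and 8 in WT. Prnp, whose promoter drives the transgene, averaged 1863 CPM (gene counts scaled to a common library total) in PS19_p16KO, 1770 in PS19, 1068 in p16KO and 1021 in WT. All 8 markers of hippocampal excitatory neurons and all 12 of homeostatic microglia were measured in every group. Summed choroid plexus markers reached 5888 CPM in PS19_p16KO library 3, 3453 in p16KO library 4 and 873 in WT library 1, against 36.3 to 203 CPM in the other libraries. PS19 library 3 stood apart from its group: it had the lowest level of 8 of the 10 genes, while PS19 library 1 had the highest level of 9. Where a call among the 10 genes changed without PS19 library 3, or without the 3 libraries richest in choroid plexus RNA, its value without them is given.

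The 10 genes spanned a wide range of levels in WT hippocampus. Per kilobase of the longest coding transcript, Apoe averaged 1341 CPM, Fabp5 38.5, Cd9 27.6 and Lpl 14.7, and the WT libraries of neighbours in this order did not overlap. Gpnmb averaged 2.43 CPM per kilobase and Spp1 2.21, and their libraries overlapped. Igf1 at 1.10, Lgals3 at 1.04 and Cd52 at 1.01 CPM per kilobase could not be ordered beyond their spread. Ch25h was lowest, at 0.326 CPM per kilobase, and its libraries overlapped those of Lgals3. With the length of all exons together in place of 1 transcript, Cd9 came before Fabp5, Spp1 before Gpnmb and Lgals3 before Igf1. Apoe alone made up 91.0% to 93.4% of the summed CPM of the 10 genes in each library.

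The first comparison asked what the transgene does where p16 is intact. Cd52, Cd9 and Gpnmb were higher in PS19 than in WT hippocampus, by 7.01-fold, 2.12-fold and 2.06-fold. All 3 are membrane proteins. Apoe was 1.55-fold higher and missed the threshold in edgeR's test (adjusted p = 0.0558), while DESeq2 called it (adjusted p = 0.00378).

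All 10 genes passed the filter on low counts, and 3 of the 10 were called higher at an adjusted p under 0.05 by edgeR's quasi-likelihood test over 16372 genes. Of all genes tested, 1.56% were called higher in this comparison. The fitted fold change was positive for all 10 genes, with a median log2 value of 0.75, where the median of all genes tested was -0.01. In bulk tissue, more cells of a type and more RNA per cell cannot be told apart.

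Cd52 (GRCm38 chromosome 4, 134082448 to 134095082) encodes a short glycosylphosphatidylinositol-anchored glycoprotein of leukocytes, and in brain its RNA is found mostly in microglia. It had 5.48, 4.76, 1.02 and 3.48 CPM in PS19 libraries 1 to 4, against 0.472, 0.493, 0.476 and 0.636 CPM in the WT libraries. Every PS19 library lay above every WT library, and PS19 library 3 came closest to them. Its log2 fold change was 2.81 ± 0.39 (SE), with an edgeR adjusted p of 0.000637. These levels rest on 284 counts over the PS19 libraries and 41 over the WT libraries. Without PS19 library 3 the log2 fold change was 3.12 (adjusted p = 7.40e-07), and the call held when any single library was left out. Cd52 overlaps Crybg2 on the opposite strand, and the sources used here do not give the strand setting of the counting. Crybg2 averaged 0.675 CPM in PS19 and 0.791 CPM in WT. Of 49 genes within 500 kb of Cd52, 24 were tested, and 1 was called, Man1c1 (log2 0.31, edgeR adjusted p = 0.0130).

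Cd9 (chromosome 6, 125460266 to 125494791) is a tetraspanin, a membrane protein that organises integrins and other partners, and is also made by astrocytes and oligodendrocytes. Its level was 91.1, 89.2, 48.1 and 60.3 CPM in the PS19 libraries, against 37.9, 28.3, 39.5 and 30.1 CPM in WT. The groups did not overlap. In the fit, the log2 fold change was 1.08 ± 0.22 (SE), with an adjusted p of 0.0237. The call was lost when PS19 library 1 or 2, or WT library 2 or 4, was left out, at adjusted p-values of 0.0948, 0.0958, 0.0977 and 0.0954 and log2 fold changes between 0.94 and 1.04.

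Gpnmb (chromosome 6, 49036546 to 49070929) is a membrane glycoprotein of late endosomes and lysosomes, and part of it is shed from the cell. It had 27.3, 21.9, 10.4 and 14.7 CPM in the PS19 libraries, against 10.1, 9.10, 9.73 and 7.05 CPM in the WT libraries. PS19 library 3, at 10.4 CPM, lay only just above the highest WT library. The log2 fold change was 1.04 ± 0.24 (SE), with an adjusted p of 0.0418. This call sat close to the threshold: it held in 4 of 16 fits that left out 1 library each, with adjusted p-values over those fits of 0.000892, without PS19 library 3, to 0.150, without WT library 4. Without the 3 libraries richest in choroid plexus RNA the log2 fold change was 1.09 (adjusted p = 0.105).

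In all, the libraries of 3 of the 10 genes did not overlap between PS19 and WT, all 3 higher in PS19, and this holds for 3.52% of all genes tested. In the plot of levels by library, the PS19 and WT points of these 3 genes are apart.

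**Figure D1:**
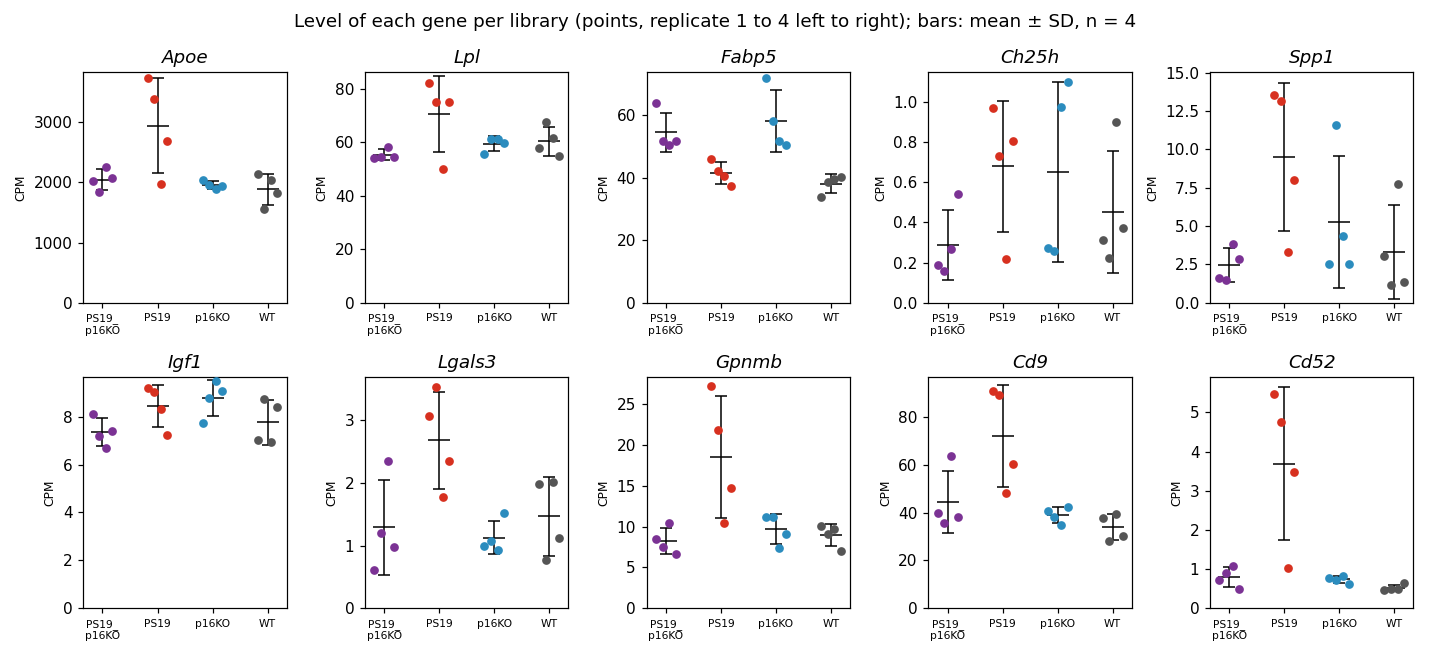
Level in CPM (vertical axis, linear, from 0) of each of the 10 genes in every library (points, replicates 1 to 4 from left to right), with the mean and SD of each group of 4 as bars. For Cd52, Cd9 and Gpnmb every PS19 library lies above every WT library, and for Fabp5 all 8 libraries without p16 lie above all 8 libraries with it.

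Of the genes of secreted proteins, Apoe, Spp1, Lgals3 and Igf1, edgeR called none in the fit of all libraries. Apoe had 3725, 3391, 1964 and 2688 CPM in the PS19 libraries, against 2139, 1560, 2036 and 1817 CPM in WT. Only PS19 library 3 fell within the WT range. Apoe had a log2 fold change of 0.63 ± 0.15 (SE), with an adjusted p of 0.0558 in the fit of all libraries and 0.000159 without PS19 library 3; over 27 alternatives it lay between 0.000159 and 0.9997, and 3 of them called Apoe: that one, DESeq2 and the fit with no robust dispersion (adjusted p = 0.0203).

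Spp1 encodes osteopontin, a secreted ligand of integrins and Cd44. It had 13.5, 13.2, 3.28 and 8.04 CPM in PS19, against 3.04, 1.17, 7.72 and 1.38 CPM in WT. WT library 3 lay above PS19 library 3, so the groups overlapped. The log2 fold change of 1.52 ± 0.68 (SE) was the second largest of the 10 genes and did not pass (adjusted p = 0.502).

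Lgals3 encodes galectin-3, a lectin that binds damaged endosomes and is also released from the cell. It averaged 2.68 ± 0.78 CPM in PS19 and 1.47 ± 0.63 CPM in WT (SD, n = 4 each), with a log2 fold change of 0.87 ± 0.35 (SE) and an edgeR adjusted p of 0.363. Igf1, insulin-like growth factor 1, was nearly level, at 8.45 ± 0.89 CPM in PS19 and 7.78 ± 0.94 CPM in WT. Its log2 fold change of 0.11 ± 0.12 (SE) had an adjusted p of 0.871.

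The enzymes and the fatty acid carrier did not pass either. Lpl had 82.2, 74.9, 50.1 and 75.0 CPM in PS19, against 57.8, 67.5, 61.5 and 54.9 CPM in WT. Its lowest PS19 library lay below every WT library and the other 3 above them all. In the fit, the log2 fold change was 0.22 ± 0.11 (SE), with an adjusted p of 0.547. Without PS19 library 3 it was 0.35 (adjusted p = 0.00398), and no other of the 27 alternatives called Lpl (adjusted p up to 0.9997). Ch25h rested on 52 counts over the PS19 libraries and 35 over the WT libraries, and its log2 fold change of 0.59 ± 0.55 (SE) could not be told from zero at this depth (adjusted p = 0.841). Ch25h also shares 159 identical bases with the overlapping noncoding gene Gm26902, which averaged 0.711 CPM in PS19 and 0.885 CPM in WT. Fabp5 averaged 41.5 ± 3.5 CPM in PS19 and 38.0 ± 2.96 CPM in WT, a log2 fold change of 0.12 ± 0.11 (SE; adjusted p = 0.827).

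**Figure D2:**
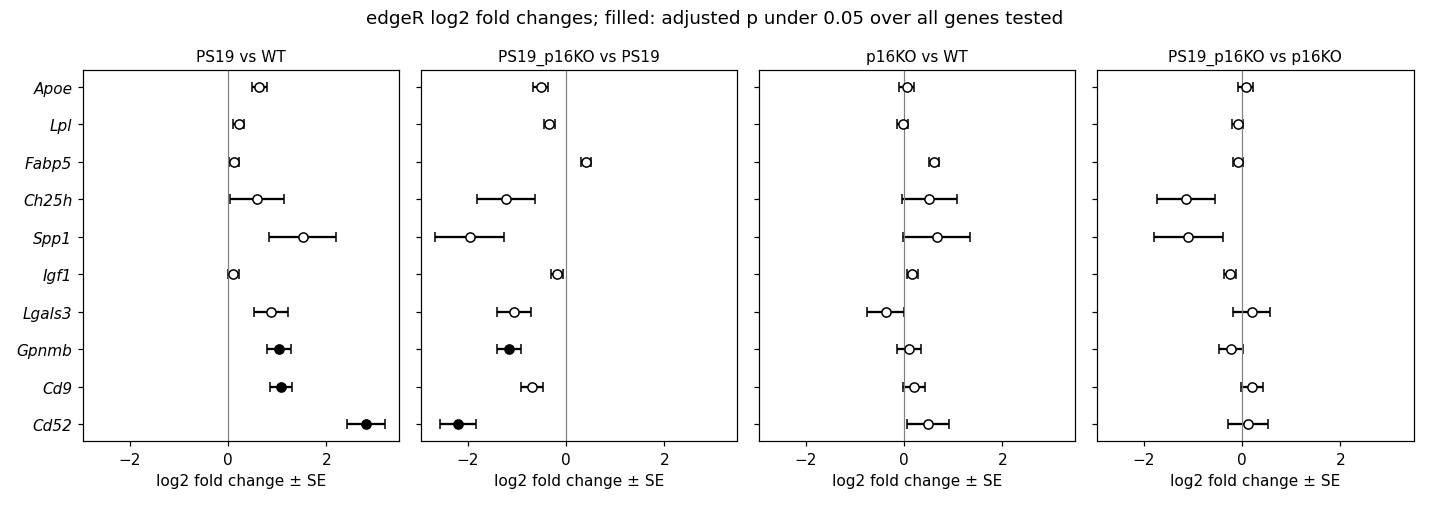
Fitted log2 fold changes (horizontal axis, points) ± SE (bars) of the 10 genes in 4 comparisons, filled where the edgeR adjusted p over all genes tested was under 0.05. Cd9, Cd52 and Gpnmb are filled in PS19 against WT, Cd52 and Gpnmb in PS19_p16KO against PS19, and no gene in the other panels.

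Microglial markers were higher in PS19 as well. The summed level of the 12 homeostatic microglia markers was 452 to 760 CPM in PS19 and 345 to 392 CPM in WT, and 6 of the 12 were called higher in PS19, among them Csf1r (log2 0.87, adjusted p = 0.00386) and Cx3cr1 (log2 0.65, adjusted p = 0.00412). Of 10 general myeloid markers 9 were called higher, among them Fcgr3 (log2 1.33), Laptm5 (log2 1.12), Cd68 (log2 1.56) and Ly86 (log2 1.67). Their sum was 106 to 231 CPM in PS19 and 68.5 to 77.6 CPM in WT. No marker of either list was at 0 in any group. PS19 library 3 had the lowest homeostatic sum of its group, 452 CPM.

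Apoe and Cd9 are not specific to microglia, and markers of other glia were also measured. The 9 astrocyte markers summed to 6124 to 8803 CPM in PS19 and 5424 to 5585 CPM in WT. By edgeR 1 of 9 was called, Gfap (log2 1.84, adjusted p = 0.00338), and 8 had an unadjusted p under 0.05. DESeq2 called 2 (Aqp4 and Gfap) and limma-voom 1 (Gfap). The 8 oligodendrocyte markers summed to 3059 to 4239 CPM in PS19 and 2407 to 3527 CPM in WT, with 0 of 8 called by edgeR or limma-voom, 2 by DESeq2 (Cldn11 and Cnp) and 7 at an unadjusted p under 0.05. Border-associated macrophage markers overlapped, at 5.97 to 6.77 CPM in PS19 and 3.77 to 12.7 CPM in WT. The part of astrocytes and oligodendrocytes in the results was not tested.

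Each level was also set against the summed homeostatic markers of the same library. Cd52 stood at 0.581 ± 0.240 CPM per 100 CPM of markers in PS19 and 0.141 ± 0.030 in WT (SD, n = 4 each), and the groups did not overlap. Gpnmb stood at 2.99 ± 0.60 in PS19 and 2.41 ± 0.26 in WT, and Cd9 at 11.9 ± 1.39 in PS19 and 9.12 ± 1.33 in WT. The groups overlapped for Gpnmb and not for Cd9 (10.63 to 13.77 in PS19 and 7.48 to 10.59 in WT). Apoe was at 486 ± 37.3 in PS19 and 508 ± 64.0 in WT, and Lpl at 11.8 ± 1.36 in PS19 and 16.3 ± 1.28 in WT. For Lpl the PS19 libraries lay below the WT libraries without overlap (10.8 to 13.8 in PS19 and 14.8 to 17.8 in WT). These ratios are descriptions and carry no test.

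With the summed homeostatic markers as a covariate, none of the 10 genes was called in this comparison, and 2 genes of all tested were. Cd52 then had a log2 fold change of 0.96 ± 0.54 (SE), and that of Gpnmb changed sign, to -0.30 ± 0.21, with edgeR adjusted p-values of 0.9997 for both. Of the 12 markers in this covariate, 6 were themselves called higher in PS19.

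**Figure D3:**
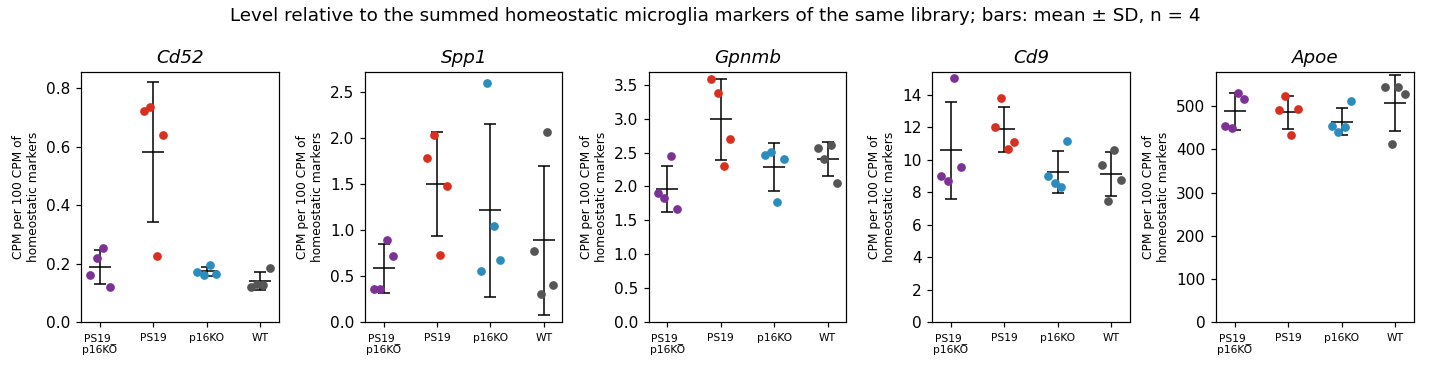
CPM of 5 genes per 100 CPM of summed homeostatic microglia markers in the same library (vertical axis, linear, from 0), with points for libraries and bars for the mean and SD of each group of 4. Cd52 and Cd9 in PS19 lie above all WT libraries, while Apoe has overlapping ranges in the 4 groups.

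The second comparison asked what loss of p16 does in transgenic hippocampus. Cd52 fell to 0.217 of its PS19 level in PS19_p16KO, and Gpnmb to 0.448 of it. The fitted change was negative for 9 of the 10 genes, Fabp5 being the exception, with a median log2 value of -0.88 where that of all genes tested was 0.00. Of the 10 genes 2 were called lower, where 0.776% of all genes tested were. Over all genes, calls in either direction numbered 135, and 29 to 347 when single libraries were left out, lowest without PS19 library 2 and highest without PS19 library 3. PS19 libraries are shared by this comparison and the last, so a high PS19 library raises one and lowers the other.

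Cd52 had 0.711, 0.891, 1.07 and 0.487 CPM in the PS19_p16KO libraries, against 5.48, 4.76, 1.02 and 3.48 CPM in PS19. PS19 library 3 lay just below PS19_p16KO library 3, so the groups overlapped at that point only. The log2 fold change was -2.21 ± 0.37 (SE), with an adjusted p of 0.00693, and the call held when any single library was left out (adjusted p up to 0.0344). It was lost by limma-voom (adjusted p = 0.0761), with only the compared groups in the fit (0.149) and with homeostatic markers as a covariate (0.932). Cd52 lies on chromosome 4, as does Cdkn2a (89274471 to 89294653). Of the 24 tested genes within 500 kb of Cd52, edgeR called 0 in this comparison.

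Gpnmb had 8.48, 7.5, 10.4 and 6.65 CPM in the PS19_p16KO libraries, against 27.3, 21.9, 10.4 and 14.7 CPM in PS19. Library 3 of both groups stood at 10.4 CPM, and the other libraries did not overlap. Its log2 fold change was -1.16 ± 0.24 (SE), with an adjusted p of 0.0369. Of the 16 fits that left out 1 library, 5 called it, with adjusted p-values from 0.000605, without PS19 library 3, to 0.146, without PS19 library 2. Without the 3 libraries richest in choroid plexus RNA its log2 fold change was -1.27 (adjusted p = 0.117).

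Cd9 and Apoe were lower in the fit without passing the test. Cd9 had 40.0, 35.7, 63.9 and 38.3 CPM in PS19_p16KO, against 91.1, 89.2, 48.1 and 60.3 CPM in PS19. The highest PS19_p16KO library is library 3, the one richest in choroid plexus RNA. In the fit, the log2 fold change was -0.69 ± 0.22 (SE; adjusted p = 0.239), and -0.90 (adjusted p = 0.122) without the 3 libraries richest in choroid plexus RNA. Apoe averaged 2046 ± 171 CPM in PS19_p16KO and 2942 ± 782 CPM in PS19 (SD, n = 4 each), with a log2 fold change of -0.51 ± 0.15 (SE) and an edgeR adjusted p of 0.190. Without PS19 library 3, edgeR called 5 of the 10 genes lower: Cd52, Gpnmb, Cd9, Apoe and Lpl, with adjusted p-values of 1.09e-05, 0.000605, 0.0450, 0.00132 and 0.000285. In that fit 1.93% of all genes were called lower.

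Spp1 was wide in its spread. It had 1.61, 1.47, 3.81 and 2.87 CPM in PS19_p16KO, against 13.5, 13.2, 3.28 and 8.04 CPM in PS19, with overlap at library 3 of both groups. The log2 fold change was -1.96 ± 0.70 (SE; adjusted p = 0.359). Lgals3 averaged 1.29 ± 0.75 CPM in PS19_p16KO and 2.68 ± 0.78 CPM in PS19 (SD, n = 4 each, as for the next genes). Lpl averaged 55.4 ± 1.98 CPM in PS19_p16KO and 70.5 ± 14 CPM in PS19. Igf1 averaged 7.35 ± 0.58 CPM in PS19_p16KO and 8.45 ± 0.89 CPM in PS19, and Ch25h 0.289 ± 0.174 CPM in PS19_p16KO and 0.679 ± 0.325 CPM in PS19. None of these 4 passed, with edgeR adjusted p-values between 0.205 and 0.721.

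Microglial markers differed here too. The homeostatic markers summed to 401 to 444 CPM in PS19_p16KO and 452 to 760 CPM in PS19, with 2 of 12 called lower, Fcrls and Csf1r. The general myeloid markers summed to 78.7 to 95.3 CPM in PS19_p16KO and 106 to 231 CPM in PS19, with 5 of 10 called lower. The astrocyte markers summed to 4749 to 5599 CPM in PS19_p16KO and 6124 to 8803 CPM in PS19, with 2 of 9 called lower, Gfap and Slc1a2. Per 100 CPM of homeostatic markers, Cd52 stood at 0.188 ± 0.058 in PS19_p16KO and 0.581 ± 0.240 in PS19. Gpnmb stood at 1.96 ± 0.34 in PS19_p16KO and 2.99 ± 0.60 in PS19. With the marker covariate 0 of the 10 genes were called, and 0 of all 16372 genes tested. The log2 fold change of Cd52 in that fit was -0.81 ± 0.44 (SE; edgeR adjusted p = 0.932).

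**Figure D4:**
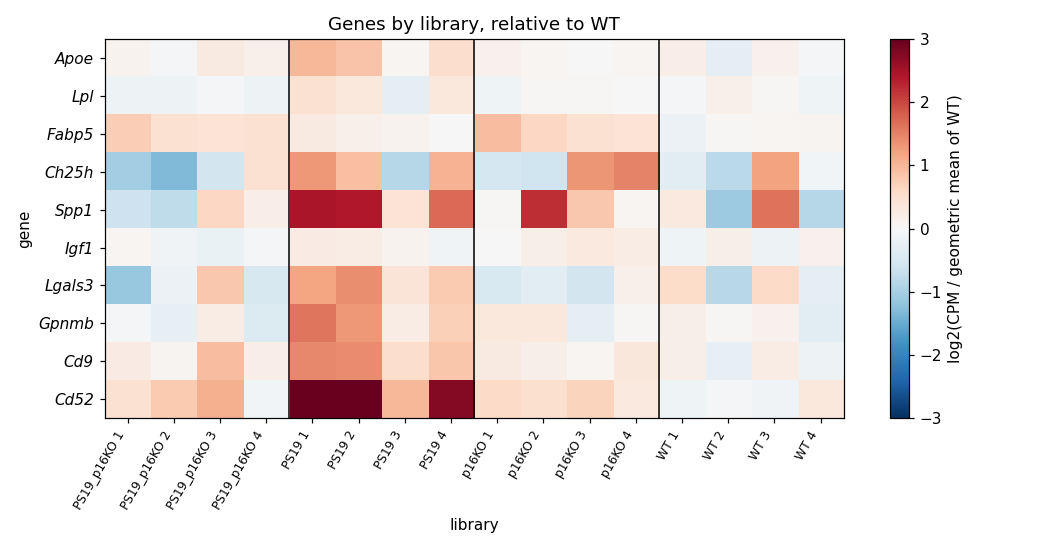
Colour scale of log2 CPM relative to the geometric mean of the WT libraries, with genes as rows and the 16 libraries as columns, values beyond 3 being drawn in the end colour. PS19 library 3 has the lowest level of its group for 8 of the 10 genes, while the Fabp5 row is raised in the PS19_p16KO and p16KO columns.

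The next comparison set transgenic against non-transgenic hippocampus where p16 was missing, and none of the 10 genes passed. In PS19_p16KO against p16KO, edgeR called 0 of the 10 genes, where 0.0183% of all genes were called. None had an unadjusted p under 0.05, where 598 of all genes did, and DESeq2 and limma-voom also called 0 of the 10. The median log2 value of the 10 genes was -0.09. Cd52 had 0.711, 0.891, 1.07 and 0.487 CPM in PS19_p16KO, against 0.766, 0.719, 0.821 and 0.627 CPM in p16KO, a log2 fold change of 0.11 ± 0.41 (SE). Gpnmb averaged 8.26 ± 1.61 CPM in PS19_p16KO and 9.70 ± 1.81 CPM in p16KO, and Cd9 44.5 ± 13.1 CPM in PS19_p16KO and 39.0 ± 3.25 CPM in p16KO (SD, n = 4 each).

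PS19_p16KO against WT gave 0 calls among the 10 genes by edgeR, where 0.0366% of all genes were called. Of the 10 genes 1, Fabp5, had an unadjusted p under 0.05, against 1334 of all genes. DESeq2 called Fabp5 and limma-voom called none. Cd52 was at a log2 fold change of 0.60 ± 0.42 (SE) and Gpnmb at -0.12 ± 0.25.

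The difference between the transgene effects with and without p16 was tested as an interaction. Its sign was negative for all 10 genes, with a median log2 value of -0.78 where that of all genes tested was 0.01. Of the 10 genes 7 had an unadjusted p under 0.05, against 890 of all 16372 genes. Yet edgeR called 0 of the 10, where 0.00611% of all genes were called. Cd52 came closest, at a log2 value of -2.70 ± 0.56 (SE; adjusted p = 0.0975). DESeq2 called 2 of the 10, Cd52 and Gpnmb, and 84 of all genes (0.276%), and limma-voom called 0 of the 10. Without PS19 library 3, edgeR called 4 of the 10: Cd52 (-3.01, adjusted p = 0.000507), Gpnmb (-1.46, adjusted p = 0.0103), Apoe (-0.72, adjusted p = 0.0182) and Lpl (-0.44, adjusted p = 0.0182). That fit called 160 of all 16584 genes it tested (0.965%), where the fit of all libraries called 1. That the transgene effect was called with p16 and not without it is therefore not by itself a called difference in the fit of all 16 libraries.

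Fabp5 was higher in libraries without p16 than in those with it. It had 63.7, 51.8, 50.6 and 51.8 CPM in PS19_p16KO, against 45.8, 42.2, 40.7 and 37.4 CPM in PS19. It had 71.9, 58.1, 51.7 and 50.4 CPM in p16KO, against 33.7, 38.7, 39.7 and 40.1 CPM in WT. All 8 libraries without p16 lay above all 8 libraries with p16, with or without the transgene. Between 8 libraries and 8, groups that did not overlap with the libraries lacking p16 higher, were seen for 0.0428% of all genes tested.

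None of the single comparisons passed for Fabp5. Its log2 fold change was 0.60 ± 0.11 (SE; edgeR adjusted p = 0.0856) in p16KO against WT, and 0.40 ± 0.11 (adjusted p = 0.0951) in PS19_p16KO against PS19. In p16KO against WT edgeR called 0 of the 10 genes and 0% of all genes, and 1 of the 10 genes, Fabp5, and 653 of all genes had an unadjusted p under 0.05; over all genes DESeq2 called 18 and limma-voom 9. DESeq2 called Fabp5 in both of these comparisons, at adjusted p-values of 0.000194 and 0.0207, and limma-voom called it in neither. Over the 27 alternatives that did not change how Fabp5 was counted, the adjusted p lay between 0.000194 and 0.408 in p16KO against WT and between 0.0207 and 0.930 in PS19_p16KO against PS19.

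Averaged over both backgrounds, a comparison added after the data had been seen, Fabp5 was 1.42-fold higher without p16. The log2 value was 0.50 ± 0.07 (SE), with an edgeR adjusted p of 0.00757. It was the 1 gene of the 10 called, and it was called higher, as 0.0977% of all genes were. The call held when any single library was left out and in the fit with microglial markers as a covariate, and was lost when counts of near-identical copies were added (adjusted p = 0.188). Cd52 was the 1 gene of the 10 called for the transgene averaged over p16 genotypes (log2 1.46 ± 0.28, adjusted p = 0.0237), where 0.366% of all genes were called higher. That call was lost when any one of WT libraries 1, 2 and 3, p16KO libraries 2, 3 and 4, PS19 library 2 and PS19_p16KO libraries 1 and 3 was left out, at adjusted p-values up to 0.0621, and without the 3 libraries richest in choroid plexus RNA (adjusted p = 0.153). Without PS19 library 3, Cd52, Gpnmb and Lpl were also called lower for the average loss of p16 (edgeR adjusted p = 0.0138, 0.0395 and 0.0119), and Cd9 and Apoe higher for the average transgene effect (0.0193 and 0.00293). That fit called 0.555% of all genes lower for the average loss of p16, where the fit of all libraries called 0.128%. For the average transgene effect it called 196 of all 16584 genes higher, where the fit of all libraries called 60.

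A near-identical copy of Fabp5 limits this result. Gm6166 is a processed pseudogene on chromosome 9 (GRCm38, 57483963 to 57484371), 98.3% identical to Fabp5 over 409 bases. Fabp5 itself lies on chromosome 3 (10012548 to 10016607). The first 258 coding bases of Fabp5 and the matching stretch of Gm6166, both from the GENCODE annotation of GRCm38 and on the plus strand, are shown because they differ at only 2 positions, T9C and T189C, counted from the A of the start codon with the base of Fabp5 first. Capitals mark these positions.
Fabp5: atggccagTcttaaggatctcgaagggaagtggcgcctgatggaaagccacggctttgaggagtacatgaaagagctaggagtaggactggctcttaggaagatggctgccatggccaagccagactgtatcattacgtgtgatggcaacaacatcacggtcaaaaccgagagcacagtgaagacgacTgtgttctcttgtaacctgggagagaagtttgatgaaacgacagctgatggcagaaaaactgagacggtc
Gm6166: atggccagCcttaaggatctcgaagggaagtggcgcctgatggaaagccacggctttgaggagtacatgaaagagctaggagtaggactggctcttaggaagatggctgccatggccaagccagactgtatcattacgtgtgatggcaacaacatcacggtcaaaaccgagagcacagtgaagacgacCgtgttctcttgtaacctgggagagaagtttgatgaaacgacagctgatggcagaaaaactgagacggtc

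A read from such a stretch can be assigned to either gene or to none, depending on how multiply mapped reads were counted, which the sources used here do not give. Gm6166 had 0.521, 0.315, 0.322 and 0.216 CPM in PS19_p16KO, against 9.03, 8.59, 7.16 and 8.52 CPM in PS19. It had 0.36, 0.462, 3.95 and 0.105 CPM in p16KO, against 5.92, 7.53, 7.14 and 7.53 CPM in WT. One p16KO library, library 3, stood apart from its group, between the other p16KO libraries and the WT libraries, and the labels give no genotype for it beyond the group name. The pseudogene moved the opposite way from Fabp5, with a log2 value of -3.54 ± 0.49 (SE) for loss of p16 averaged over both backgrounds (adjusted p = 0.0119). Without p16KO library 3 this value was -4.51 (adjusted p = 6.25e-11). The other copy, Gm14328, had at most 0.216 CPM in any library.

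With the counts of both copies added to those of Fabp5, the level was 54.9 ± 6.27 CPM in PS19_p16KO and 49.9 ± 3.93 CPM in PS19, and 59.3 ± 9.29 CPM in p16KO and 45.2 ± 3.68 CPM in WT (SD, n = 4 each). Libraries without p16, from 50.5 CPM upwards, then overlapped libraries with it, which reached 55.0 CPM. The overlap came from PS19 libraries 1 and 2, at 55.0 and 50.9 CPM. The WT libraries reached at most 47.7 CPM and lay below every library without p16. The averaged log2 value was 0.27 ± 0.07 (SE) and was no longer called (edgeR adjusted p = 0.188). Of 26 genes within 500 kb of Fabp5, 7 were tested, and the smallest edgeR adjusted p among them for the average loss of p16 was 0.478, that of Zfand1 (log2 0.20).

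**Figure D5:**
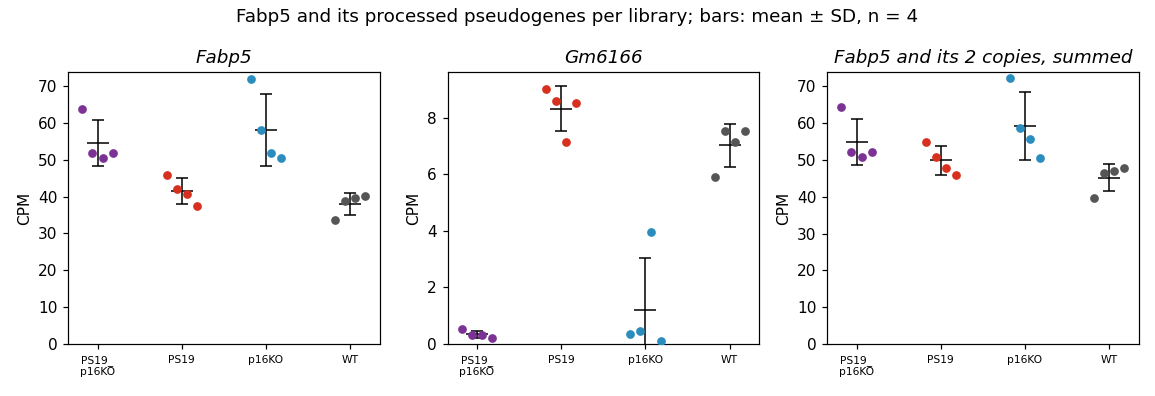
CPM (vertical axes, linear, from 0) of Fabp5, of its processed pseudogene Gm6166 and of Fabp5 summed with both copies, with points for libraries and bars for the mean and SD of each group of 4. Fabp5 is higher and Gm6166 lower without p16, and the sums overlap between libraries without and with p16.

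The genes that surround these proteins in their pathways were taken from lists. Of 18 tested genes of lipoproteins and lipid transport, 2 were called higher in PS19 than in WT. They were Abca1, which exports cholesterol to Apoe (log2 0.69, adjusted p = 0.0128), and Clu, another brain apolipoprotein (log2 0.56, adjusted p = 0.0195). Abca1 averaged 80.9 CPM in PS19 and 49.97 CPM in WT. In PS19_p16KO against PS19 it was called lower, the 1 of 18 that was, at 48.4 CPM in PS19_p16KO and 80.9 CPM in PS19 (log2 -0.73, adjusted p = 0.0175).

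Of 21 tested genes around lipases, fatty acid uptake and lipid droplets, edgeR called 0 in PS19 against WT, with 5 at an unadjusted p under 0.05, while DESeq2 called 1, Npc2, and limma-voom called 0. Of these 21 genes 0 were called in PS19_p16KO against PS19 by any of the 3 tools, with 4 at an unadjusted p under 0.05. Of 9 tested genes of oxysterol metabolism and sensing, 0 were called in PS19 against WT by any of the 3 tools, with 2 at an unadjusted p under 0.05. In PS19_p16KO against PS19 1 of the 9 was called, and it was higher: Insig1, which holds back the activation of sterol synthesis genes, averaged 78.2 CPM in PS19_p16KO and 55.5 CPM in PS19 (log2 0.50, adjusted p = 0.0278).

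Of 15 receptors, binding partners and regulators of osteopontin, Gpnmb and galectin-3, 1 was called higher in PS19 than in WT. It was Itgb5, an integrin chain that pairs with the alpha-v chain to bind osteopontin (102.7 CPM in PS19 and 59.2 CPM in WT, log2 0.79, adjusted p = 0.0153). Of 10 other tetraspanins 2 were called higher, Cd37 of leukocytes (log2 0.98, adjusted p = 0.0418) and the widely expressed Cd81 (log2 0.32, adjusted p = 0.0137). Of 4 other galectins edgeR called 0 in this comparison, with 2 at an unadjusted p under 0.05, and DESeq2 called 2, Lgals1 and Lgals9, and limma-voom 0. Of 13 genes of the insulin-like growth factor axis 0 were called by any of the 3 tools, with 1 at an unadjusted p under 0.05, alongside the near-level Igf1.

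The 15 other disease-associated microglia genes are given for comparison. They include receptors, signalling proteins and lysosomal enzymes, and also secreted proteins such as Ccl6. In PS19 against WT 11 of 15 were called higher, with a median log2 value of 0.95, against 3 of 10 and 0.75. Cst7, an inhibitor of cathepsins, averaged 6.63 CPM in PS19 and 0.188 CPM in WT (log2 5.08, adjusted p = 0.000642), while the glucan receptor gene Clec7a averaged 15.9 CPM in PS19 and 1.14 CPM in WT (log2 3.79, adjusted p = 0.000393). Ccl6 and Tyrobp were called as well (log2 3.07 and 1.65, adjusted p = 9.92e-05 and 0.00117). In PS19_p16KO against PS19 7 of 15 were called lower, with a median log2 value of -0.76, against 2 of 10 and -0.88. The difference between the lists was not tested.

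The profiles of the called genes over the 16 libraries were compared with 14238 other named genes by the root mean square difference of centred log2 CPM. Nearest to Cd52 were Lag3 (0.334) and Lyz2 (0.340), where Cd52 itself varied by 1.05 about its mean on this scale. Nearest to Gpnmb were Ctsh (0.165) and Vim (0.175), with 0.533 for Gpnmb itself, and nearest to Cd9 were Ctsz (0.126) and Arpc1b (0.132), with 0.477 for Cd9. For Fabp5 the nearest, Shisa4 (0.177) and Arrdc1 (0.179), lay at distances that are a large part of its own 0.289.

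Promoters were examined because the fitted change was negative for 9 of the 10 genes in PS19_p16KO against PS19. RefSeq promoter windows of GRCm38.p6 were found for 7 of the 10 genes, with 10 start sites in all, and the 250 bases before each start were searched on both strands. The letters GAGGAA, read by Ets factors such as PU.1, the master regulator of myeloid cells, were found for 3 of the 7 genes, Apoe, Spp1 and Igf1, at 4 of the 10 start sites, and 23.3% of 32851 promoters of this length hold them. The AP-1 letters TGANTCA were found for 1 of 7 genes, Igf1, at 1 of the 10 start sites, where 6.75% of promoters hold them. The letters CACGTG, read by Mitf and Tfe factors, were found at 0 of the 10 start sites (6.02% of promoters). The motifs do not overlap one another in these windows. A match is a description of letters and not a bound site.

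Shown is the window of Gpnmb, the only one of these genes with a window that was called in both of the first 2 comparisons. Also shown is 1 window each of Apoe and Spp1 that holds the Ets letters, in capitals. Apoe has 3 start sites and Spp1 has 2, and not every window of either gene holds these letters. In the Apoe window shown they begin at base -250, its far edge. The windows shown lie at chr6:49036268-49036517 on the plus strand for Gpnmb, chr7:19699189-19699438 on the minus strand for Apoe and chr5:104434861-104435110 on the plus strand for Spp1.
Gpnmb: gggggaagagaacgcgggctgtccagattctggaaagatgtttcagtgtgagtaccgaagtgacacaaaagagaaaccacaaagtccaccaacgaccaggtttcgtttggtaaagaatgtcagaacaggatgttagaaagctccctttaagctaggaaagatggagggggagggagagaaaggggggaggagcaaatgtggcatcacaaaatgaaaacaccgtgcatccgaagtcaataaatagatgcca
Apoe: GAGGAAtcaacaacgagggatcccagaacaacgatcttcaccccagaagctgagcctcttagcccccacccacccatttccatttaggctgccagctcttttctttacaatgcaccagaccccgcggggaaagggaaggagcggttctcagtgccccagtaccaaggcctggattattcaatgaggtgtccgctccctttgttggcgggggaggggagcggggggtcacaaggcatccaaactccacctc
Spp1: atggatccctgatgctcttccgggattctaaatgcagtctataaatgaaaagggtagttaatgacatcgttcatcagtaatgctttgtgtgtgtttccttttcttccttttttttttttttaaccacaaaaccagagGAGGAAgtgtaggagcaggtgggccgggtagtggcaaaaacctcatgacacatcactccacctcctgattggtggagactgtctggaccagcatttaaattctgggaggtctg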

How the data were processed

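The authors deposited 1 table of raw counts per gene for the 16 libraries, and nothing in it was normalized. The submitters' processing notes name GRCm38 and, with no role or order, STAR 2.5.2b, Trimmomatic 0.36, Subread 1.5.2, featureCounts and DESeq2. Symbols and positions come from GENCODE release M21. The 92 spike-in rows were left out.

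Counts were tested with edgeR 4.0.16 (R 4.3.3): TMM scaling, filterByExpr with a minimum count of 10, 1 robust quasi-likelihood fit of all libraries, and Benjamini-Hochberg adjustment over 16372 genes at 0.05. SE was taken from the F statistic. Levels are CPM before TMM scaling. DESeq2 1.42.0 and limma-voom (limma 3.58.1) were alternatives. The fit was tested on simulated data. Counts of replicates differed beyond sampling noise (chi-square per degree of freedom 4.82 to 26.3).

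The 10 genes, the lists and the tests were chosen with earlier results of these data known. All 10 genes are named, and of each list up to 4 called genes with the smallest adjusted p. Also named are 2 nearest profiles for each called gene, and genes close to Fabp5 and Cd52. Genes called by DESeq2 alone, Gm6166 and Gm14328 were named after their values were seen.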

Additional observations from a re-analysis of the deposited data

Results flagged for a closer look

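In each group of 4 libraries, the gap between the highest or lowest library and its nearest neighbour was compared with the whole range of the group. Of 40 groups (10 genes in 4 genotypes) 4 exceeded Dixon's critical value for that ratio, and chance gives about 1 in 20. Lpl had 58.3 CPM in PS19_p16KO library 3, above 54.3 to 54.5 CPM in the others. Cd9 had 63.9 CPM in the same library, the one richest in choroid plexus RNA, against at most 40.0 CPM in the others. Fabp5 had 63.7 CPM in PS19_p16KO library 1, against at most 51.8 CPM in the others. Cd52 had 0.636 CPM in WT library 4, against at most 0.493 CPM in the others.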

How the results depend on the processing

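Counts of called genes among the 10 moved with the processing. Higher in PS19 than in WT were 3 genes, but 4 by DESeq2 or with no robust dispersion (both adding Apoe), 2 by limma-voom, with no filter or without the 3 libraries richest in choroid plexus RNA, 1 with a term for the leading digit of each library name's suffix, 1 with only the compared groups in the fit, 0 with homeostatic markers as a covariate, and 1 to 5 when single libraries were left out; with that covariate Gpnmb reversed, to a log2 value of -0.30. Lower in PS19_p16KO than in PS19 were 2, but 0 by limma-voom, with only the compared groups or with the covariate, 1 with no filter, with the suffix term or without the 3 libraries richest in choroid plexus RNA, and 1 to 5 with single libraries left out. Higher in that comparison, in p16KO against WT and in PS19_p16KO against WT were 0, but 1 by DESeq2 in each, and 0 to 1, 0 and 0 to 1 with single libraries left out. For the interaction 0 were called lower, but 2 by DESeq2, 1 with no filter and 0 to 4 with single libraries left out. For the average transgene effect 1 was called higher, but 2 by DESeq2 or with no robust dispersion, 0 by limma-voom, with the suffix term, with the covariate or without the 3 libraries richest in choroid plexus RNA, and 0 to 3 with single libraries left out. For the average loss of p16, 0 were called lower and 0 to 3 with single libraries left out. The cause of these moves was not tested. Over all genes, the calls in PS19 against WT were 264, with 124 to 438 when single libraries were left out, 391 by DESeq2, 70 with only the compared groups and 2 with the covariate. Lower in PS19_p16KO than in PS19 were 127 of all genes, but 34 by limma-voom, 6 with only the compared groups and 0 with the covariate. DESeq2 called 37 genes higher in that comparison, 10 in p16KO against WT and 18 in PS19_p16KO against WT. For the interaction 1 gene was called lower, but 83 by DESeq2 and 20 with no filter. For the average transgene effect 60 genes were called higher, but 158 by DESeq2, 23 by limma-voom and 3 with the covariate.

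With the replicate number as a block, 2 genes were called higher in PS19 than in WT (Cd52 and Gpnmb; Cd9 at an adjusted p of 0.0674) and 2 lower in PS19_p16KO than in PS19. Correlations between same-numbered libraries lay between -0.388 and 0.223. Libraries with different numbers were not compared in this way, so these values cannot decide whether the numbers pair the libraries. WT and PS19 libraries of the same number share the leading digit of the library name's suffix. Depth limits Ch25h and Cd52 most, with 22 and 41 counts in their lowest groups.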
